A study of Rattus norvegicus with 12 samples.

Results

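The lipogenic programme of the liver was followed here through 10 genes: the transcription factor genes Srebf1 and Mlxipl, the genes of acetyl-CoA and malonyl-CoA supply Acly, Acss2 and Acaca, the fatty acid synthase gene Fasn, the elongase genes Elovl6 and Elovl5, and the desaturase genes Scd and Fads1. They were chosen by name, as every probe set that the array's annotation assigns to one of them alone. This gave 15 probe sets of the 31042 on the array that are not controls, and all 15 were among the 21729 bright enough to be tested. The whole array covered 14217 genes with a probe set of their own, of which 11842 were tested.

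De novo lipogenesis turns surplus carbohydrate into fatty acids, and the liver is one of its main sites. Citrate leaving the mitochondria is split by Acly to cytosolic acetyl-CoA, to which Acss2 adds a share made from acetate. Acaca carboxylates acetyl-CoA to malonyl-CoA, Fasn builds palmitate from it, Elovl6 lengthens palmitate and Scd places a double bond in the product, while Elovl5 and Fads1 work mainly on polyunsaturated fatty acids. SREBP1, the product of Srebf1, drives these genes after insulin. It is made as a membrane-bound precursor that is held in the endoplasmic reticulum by Insig proteins and released by cleavage, so its RNA level is not a measure of its activity. ChREBP, the product of Mlxipl, answers to glucose and shares many of these targets.

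Liver RNA came from adult male Sprague-Dawley rats, 10 weeks old, that were given a triazole fungicide by gavage every 24 h over a 72 h exposure. The groups were myclobutanil, propiconazole, triadimefon and control, with 3 rats each. Both myclobutanil and propiconazole were dosed at 300 mg/kg/day, and triadimefon at 175 mg/kg/day. Every liver was hybridized alone to an Affymetrix Rat Genome 230 2.0 array. Triazole fungicides act on the fungal sterol demethylase. What the controls received, and whether the rats had fasted, is not given in the sources used here.

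Levels are given in log-like units, the deposited scale once the arrays had been quantile normalized. Neither its log base nor its centring is known, so no difference is a fold change. For scale, the median array put the abundant spike-in cre 2.73 units above the scarce spike-in bioB. Differences are given ± SE from limma, and a probe set was called where the p-value, adjusted over all 21729 tested probe sets, was under 0.05. The median half-width of a 95% interval over all probe sets was 0.141 units, so the number of arrays limits what can be seen. Every member had a wider interval than that, with an SE from 0.072 (Mlxipl) to 0.39 units (Scd). Levels of different genes are not set against each other, since probe sets differ in their response. The array of myclobutanil replicate 1 stood apart, with a deposited median of 0.157 against 0.0182 to 0.0552 on the other 11 and a median correlation of 0.927 with them, where other arrays had 0.962 to 0.982. In whole-liver RNA, fewer cells of a type and less RNA per cell cannot be told apart.

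SREBP1 binds short sterol elements, often beside a CCAAT box for the factor NF-Y, and Srebf1 itself is among its targets. The 250 bases before the annotated start were therefore read for the members in the RefSeq promoter table of the GRCr8 assembly, which held 9 windows for 7 of the 10 genes; Fasn, Acaca and Elovl6 are named only. Of these windows, 3 are shown, for the factor gene and for the genes of both acetyl-CoA makers, to let the number and place of their CCAAT boxes be compared. Capitals mark the CCAAT box, which reads ATTGG where it lies on the other strand.
Srebf1, second annotated start, chr10:45519011-45519260, minus strand: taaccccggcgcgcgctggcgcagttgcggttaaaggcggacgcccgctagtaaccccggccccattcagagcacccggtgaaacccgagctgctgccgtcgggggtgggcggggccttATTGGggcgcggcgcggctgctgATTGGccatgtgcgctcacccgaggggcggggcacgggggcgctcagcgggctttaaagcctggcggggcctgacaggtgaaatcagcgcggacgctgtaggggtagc
Acss2, chr3:164464453-164464702, plus strand: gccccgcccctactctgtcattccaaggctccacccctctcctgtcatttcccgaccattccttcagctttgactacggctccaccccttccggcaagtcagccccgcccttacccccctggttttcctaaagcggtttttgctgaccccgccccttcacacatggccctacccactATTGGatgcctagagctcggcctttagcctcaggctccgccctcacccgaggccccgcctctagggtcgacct
Acly, chr10:85963632-85963881, minus strand: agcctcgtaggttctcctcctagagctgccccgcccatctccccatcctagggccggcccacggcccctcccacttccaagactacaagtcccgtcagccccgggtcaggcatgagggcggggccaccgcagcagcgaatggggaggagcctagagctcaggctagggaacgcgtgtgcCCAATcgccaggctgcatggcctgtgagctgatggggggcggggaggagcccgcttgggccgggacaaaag

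The second start of Srebf1 had CCAAT boxes beginning 131 and 108 bases before it. Its first start, not shown, had 1, at 169 bases, so the number for Srebf1 depends on the start. Acss2 had 1, at 73 bases, and Acly 1, at 71 bases. Both strands were searched. The CCAAT box was in 8 of the members' 9 windows and in 34% of all 33465 windows of the table. By gene it was in 6 of 7, all but Scd, since the 2 windows of Mlxipl begin 4 bases apart and hold the same boxes and Srebf1 has 2 starts. The sterol element TCACNCCAC, in the form known from the LDL receptor gene, was in 0 of the 9 and in 0.974% of all, and the E-box CACGTG was in 1, that of Elovl5, and in 5.59% of all. No other form of the sterol element was searched, so a count of 0 does not mean that these windows lack one. A match describes letters only and is not a measured binding site.

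No member was called in any of the 4 comparisons. The test called 1.82% of all probe sets between myclobutanil and control, 1.43% between propiconazole and control, 0.769% between triadimefon and control and 0% between myclobutanil and propiconazole. The medians of the 10 differences nevertheless lay apart: 0.090 for myclobutanil minus control, -0.22 for propiconazole minus control and 0.23 for triadimefon minus control, beside -0.013, -0.012 and -0.013 over all tested probe sets. With propiconazole 10 of the 10 genes averaged below control, with triadimefon 8 averaged above it, and with myclobutanil 5 averaged above and 5 below. The 3 compounds share the control rats, so their differences from control are not independent of each other. Nor are the 10 genes independent observations, since rats of one group differed across most of them together, as set out below.

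**Figure D1:**
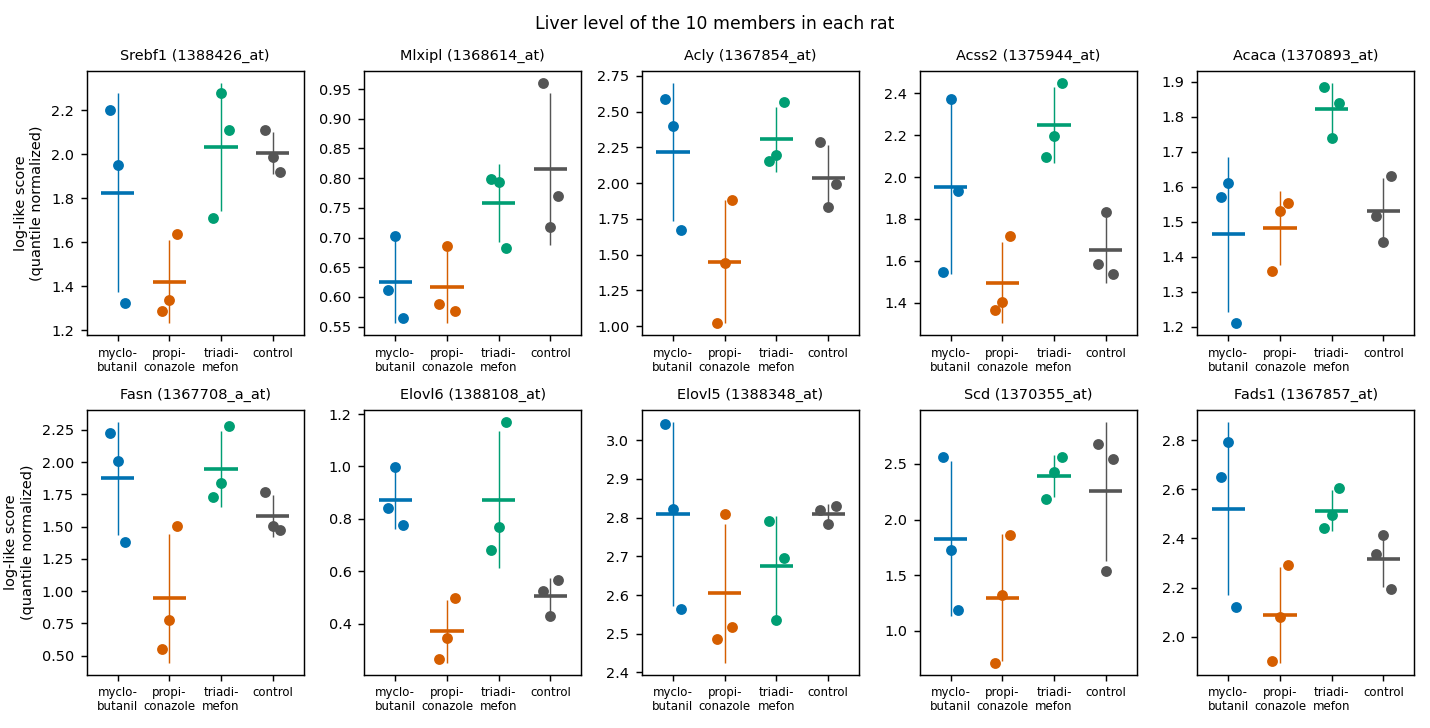
Level of each of the 10 genes (log-like units) in each rat, with groups from left to right myclobutanil, propiconazole, triadimefon and control; each point is 1 liver and each bar a group mean of 3. In the Elovl6 panel all myclobutanil and triadimefon points lie above all control points, while the propiconazole points of Srebf1 and Mlxipl lie below all of their control points.

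Srebf1 stood at 2.20, 1.95 and 1.32 units in the myclobutanil livers, at 1.29, 1.34 and 1.64 in the propiconazole livers, at 1.71, 2.28 and 2.11 in the triadimefon livers and at 2.11, 1.99 and 1.92 in the control livers. All 3 propiconazole livers were below all 3 controls, whereas the other compounds overlapped with control. The difference from control was -0.58 ± 0.21 with propiconazole (limma adjusted p = 0.220), -0.18 ± 0.21 with myclobutanil and 0.027 ± 0.21 with triadimefon. A second Srebf1 probe set, 1371104_at, gave -0.33 ± 0.27 with propiconazole, and there the groups overlapped.

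Mlxipl measured 0.612, 0.702 and 0.564 units with myclobutanil, 0.588, 0.687 and 0.575 with propiconazole, 0.798, 0.794 and 0.682 with triadimefon and 0.961, 0.718 and 0.770 in control. Every myclobutanil and every propiconazole liver lay below every control, by a narrow margin to the lowest control. The differences were -0.19 ± 0.072 with myclobutanil (adjusted p = 0.169), -0.20 ± 0.072 with propiconazole (adjusted p = 0.229) and -0.058 ± 0.072 with triadimefon (adjusted p = 0.784).

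Among the genes of acetyl-CoA supply, Acly read 2.58, 2.40 and 1.67 units in myclobutanil livers, 1.02, 1.44 and 1.88 in propiconazole livers, 2.16, 2.20 and 2.56 in triadimefon livers and 2.29, 1.83 and 1.99 in control livers. The propiconazole livers spread widely, and the highest of them passed the lowest control. The propiconazole difference was -0.59 ± 0.26 (adjusted p = 0.317), against 0.18 ± 0.26 for myclobutanil and 0.27 ± 0.26 for triadimefon.

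For Acss2 the values were 1.55, 2.37 and 1.93 units with myclobutanil, 1.36, 1.41 and 1.72 with propiconazole, 2.10, 2.20 and 2.45 with triadimefon and 1.58, 1.83 and 1.54 in control. All 3 triadimefon livers stood above every control, and the groups overlapped for the other compounds. Triadimefon gave the largest Acss2 difference from control, 0.60 ± 0.19 (95% interval 0.19 to 1.01, adjusted p = 0.196), beside 0.30 ± 0.19 for myclobutanil and -0.16 ± 0.19 for propiconazole. Fits of the 6 arrays of the 2 groups, or with array weights, took triadimefon's Acss2 past the threshold (adjusted p = 0.0439 and 0.0294), and leaving out 1 array gave adjusted p from 0.0613 to 0.526. Those 2 fits also called more probe sets of the whole array for triadimefon, 623 and 1038 against 167 in the main fit.

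Acaca, whose product makes malonyl-CoA, stood at 1.57, 1.61 and 1.21 units with myclobutanil, at 1.36, 1.53 and 1.55 with propiconazole, at 1.89, 1.74 and 1.84 with triadimefon and at 1.52, 1.44 and 1.63 in control. Again the triadimefon livers were all above the controls, by 0.29 ± 0.11 on average (adjusted p = 0.275). Differences from control were -0.066 ± 0.11 with myclobutanil and -0.048 ± 0.11 with propiconazole. The second Acaca probe set, 1387538_at, gave 0.084 ± 0.12 with triadimefon, and there the groups overlapped.

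Fasn levels were 2.23, 2.01 and 1.38 units in myclobutanil livers, 0.549, 0.779 and 1.50 in propiconazole livers, 1.73, 1.84 and 2.28 in triadimefon livers and 1.77, 1.51 and 1.47 in control livers. Propiconazole replicates 1 and 2 lay far below the controls, but replicate 3 lay within their range. The differences were 0.29 ± 0.26 for myclobutanil (adjusted p = 0.535), -0.64 ± 0.26 for propiconazole (adjusted p = 0.290) and 0.37 ± 0.26 for triadimefon (adjusted p = 0.591). On its other probe set, 1367707_at, the same differences were -0.050 ± 0.28, -0.52 ± 0.28 and 0.18 ± 0.28, so that the sign for myclobutanil depends on the probe set.

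Elovl6, the elongase of palmitate, read 0.843, 0.996 and 0.778 units with myclobutanil, 0.265, 0.347 and 0.499 with propiconazole, 0.680, 0.767 and 1.17 with triadimefon and 0.525, 0.430 and 0.565 in control. The myclobutanil and triadimefon livers were all above the controls, and propiconazole overlapped with control. The difference was 0.37 ± 0.12 both for myclobutanil (adjusted p = 0.117) and for triadimefon (adjusted p = 0.201), and -0.14 ± 0.12 for propiconazole. The separate probe set 1394401_at gave 0.35 ± 0.091 for myclobutanil and 0.37 ± 0.091 for triadimefon (adjusted p = 0.0728 and 0.0989), with no overlap with control for either compound. With array weights the triadimefon difference of 1388108_at, the brighter probe set, passed (adjusted p = 0.0426). That fit called 1038 probe sets of the whole array, against 167 in the main fit.

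Elovl5, an elongase of polyunsaturated fatty acids, measured 3.04, 2.82 and 2.56 units in myclobutanil livers, 2.49, 2.81 and 2.52 in propiconazole livers, 2.79, 2.54 and 2.70 in triadimefon livers and 2.82, 2.78 and 2.83 in control livers. All groups overlapped with control. Its differences were -0.0016 ± 0.12 with myclobutanil, -0.21 ± 0.12 with propiconazole and -0.14 ± 0.12 with triadimefon. The dimmer probe set 1387630_at gave -0.36 ± 0.28, -0.0077 ± 0.28 and -0.33 ± 0.28, so the 2 probe sets did not rank the compounds alike.

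Scd, the stearoyl-CoA desaturase gene, was the most variable member, with a pooled within-group SD of 0.557 units against 0.0857 to 0.371 for the other 9 genes. It stood at 2.56, 1.73 and 1.18 units with myclobutanil, at 0.714, 1.32 and 1.86 with propiconazole, at 2.19, 2.43 and 2.56 with triadimefon and at 2.68, 1.54 and 2.55 in control. The groups overlapped for every compound, and for propiconazole this was through the low control liver, replicate 2. Differences were -0.43 ± 0.39 for myclobutanil, -0.96 ± 0.39 for propiconazole (adjusted p = 0.284) and 0.14 ± 0.39 for triadimefon.

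Fads1, a desaturase of polyunsaturated fatty acids, gave 2.65, 2.79 and 2.12 units in myclobutanil livers, 1.90, 2.08 and 2.29 in propiconazole livers, 2.44, 2.49 and 2.60 in triadimefon livers and 2.34, 2.41 and 2.19 in control livers. The triadimefon livers lay just above the highest control. The differences were 0.21 ± 0.16 for myclobutanil, -0.22 ± 0.16 for propiconazole and 0.20 ± 0.16 for triadimefon, with adjusted p of 0.463, 0.557 and 0.630.

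**Figure D2:**
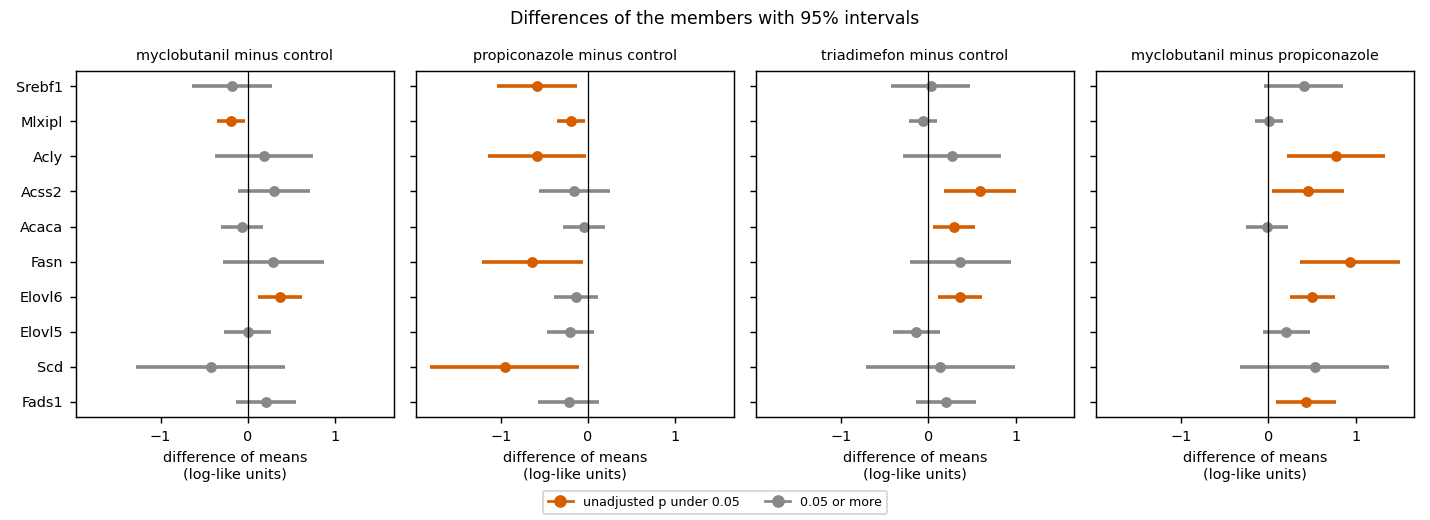
Difference of group means (log-like units) for each gene in each of the 4 comparisons; points are estimates, lines 95% intervals from limma, and orange marks an unadjusted p under 0.05. With propiconazole all 10 estimates lie left of 0, and with myclobutanil minus propiconazole 9 lie right of 0.

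Counted without adjustment, 5 of the 10 genes were lower with propiconazole at p under 0.05 (Srebf1, Mlxipl, Acly, Fasn and Scd), where 6.77% of all probe sets were. Without propiconazole replicate 1, or without control replicate 1, this count was 0, and without any other single array it was 3 to 5. Triadimefon had 3 genes higher (Acss2, Acaca and Elovl6), where 7.02% of all probe sets were. For myclobutanil, Elovl6 was higher and Mlxipl lower, where 9.2% and 11.9% of all probe sets were, so that comparison stood near its background. Groups did not overlap with control for 2 members with myclobutanil, 2 with propiconazole and 4 with triadimefon, where 23.3%, 27.8% and 28.3% of all probe sets did not, so the first 2 of these shares were below their background.

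Myclobutanil and propiconazole were given at one dose and are the 1 matched pair of compounds. Beside the shared triazole ring, myclobutanil carries a nitrile and propiconazole a dioxolane ring. Limma called no member between them, and no other probe set either. Myclobutanil livers averaged higher for 9 of the 10 genes, all but Acaca, and the median difference was 0.44 against -0.0059 over all probe sets. Fasn differed by 0.93 ± 0.26 (95% interval 0.36 to 1.50, adjusted p = 0.348) and Acly by 0.77 ± 0.26 (0.21 to 1.33, adjusted p = 0.414). The other Fasn probe set gave 0.47 ± 0.28 (-0.15 to 1.08), with overlap. Elovl6 was the one gene whose 2 groups did not overlap, where 13.4% of all probe sets did not. It differed by 0.50 ± 0.12 (0.25 to 0.76, adjusted p = 0.253), and by 0.40 ± 0.091 on its second probe set. Elovl6 with Fasn, Acly, Acss2 (0.45 ± 0.19) and Fads1 (0.43 ± 0.16) made 5 genes higher at an unadjusted p under 0.05, where 4.88% of all probe sets were. The count was 2 without propiconazole replicate 1 and 3 without myclobutanil replicate 1 or 2. For Scd the interval ran from -0.32 to 1.38, for Srebf1 from -0.052 to 0.859, for Mlxipl from -0.15 to 0.17 and for Acaca from -0.26 to 0.22. The other probe sets of Srebf1, Elovl5 and Acaca gave 0.033 ± 0.27, -0.36 ± 0.28 and -0.14 ± 0.12. Triadimefon was given at a lower dose and was not tested against the others.

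Rats of one group differed across most of the 10 genes together. With each gene set to 0 at its own mean over the 12 arrays, the average over the 10 genes was 0.263, 0.219 and -0.248 units in the myclobutanil livers, -0.567, -0.347 and -0.117 in the propiconazole livers, 0.126, 0.206 and 0.375 in the triadimefon livers and 0.138, -0.0726 and 0.0249 in the control livers. The 3 propiconazole livers and myclobutanil replicate 3 were thus the low ones. In propiconazole livers 0, 1 and 0 of the 10 genes exceeded their own mean, while in triadimefon livers 9, 9 and 8 did. Myclobutanil replicate 3 was the lowest of its group for 9 genes, and so was propiconazole replicate 1, while propiconazole replicate 3 was the highest of its group for 8.

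**Figure D3:**
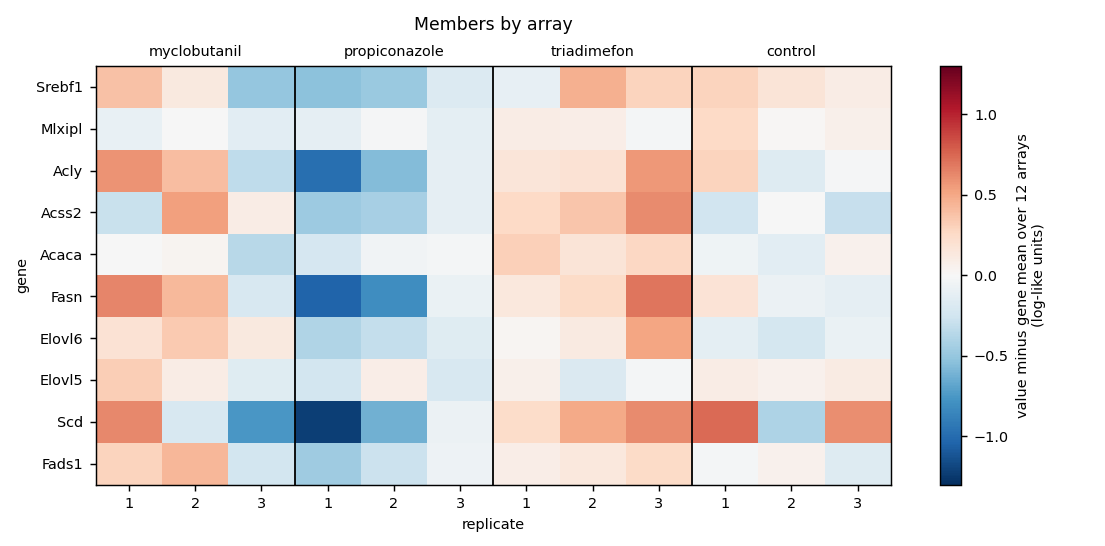
Level of each gene (rows) on each array (columns) as the difference from the gene's own mean over the 12 arrays, in log-like units; columns run from myclobutanil through propiconazole and triadimefon to control. The propiconazole columns and myclobutanil replicate 3 are mostly below 0, and the triadimefon columns mostly above.

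The array that stood apart bears on the myclobutanil values. Without myclobutanil replicate 1 the median of the 10 differences from control was -0.059, with 4 genes above 0 and 6 below, against 0.090 with it. Acss2 then differed by 0.50 (adjusted p = 0.112), Fasn by 0.12 and Scd by -0.80. The median for myclobutanil was also below 0 with the deposited values (-0.0025) and with median centring (-0.024), so its sign is not settled. Under the same scalings the propiconazole median stayed below 0 and the triadimefon median above it. RNA ends, read as the GAPDH 3' minus 5' difference, averaged 0.624 ± 0.128 units with myclobutanil, 0.434 ± 0.106 with propiconazole, 0.587 ± 0.212 with triadimefon and 0.659 ± 0.252 in control (SD, n = 3 each). The same difference for actin averaged 0.807 ± 0.145, 0.636 ± 0.093, 0.838 ± 0.200 and 0.682 ± 0.202 in that order of groups. The part of RNA quality in the members' values was not tested.

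Across the 12 arrays, the genes whose standardised values lay nearest to those of Srebf1, among 11832 genes outside the family, were Hes6, Mknk2, Map1s, Mid1ip1 and Islr. Their root mean square differences were 0.452, 0.515, 0.545, 0.566 and 0.590 SD units, where 0 would be an identical pattern. Mid1ip1 encodes a protein that activates acetyl-CoA carboxylase, Hes6 a transcriptional cofactor and Mknk2 a kinase acting on a translation factor. Of the members, Acly (0.531), Scd (0.542), Fasn (0.561) and Fads1 (0.637) lay near Srebf1, while Acaca (0.912), Elovl6 (0.931), Mlxipl (0.936), Elovl5 (1.02) and Acss2 (1.04) lay farther off. Acly and Scd would each take place 3 in that order and Acss2 place 1401. These distances describe 12 arrays that share 4 groups and one normalization.

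Genes around the pathway gave few calls. Of 12 tested genes of SREBP processing and its upstream regulators, 1 fell with propiconazole, 1 fell with triadimefon and 0 changed with myclobutanil, and the gene was Insig2 in both cases. Insig2, which retains the SREBP precursor in the endoplasmic reticulum, stood at 2.22, 1.99 and 2.50 units with myclobutanil, at 1.95, 1.65 and 1.51 with propiconazole, at 1.51, 1.44 and 1.43 with triadimefon and at 2.49, 2.63 and 2.64 in control. All propiconazole and triadimefon livers lay below all controls. It fell by 0.88 ± 0.13 with propiconazole (adjusted p = 0.0152) and by 1.13 ± 0.13 with triadimefon (adjusted p = 0.00893), and with myclobutanil it stood at -0.35 ± 0.13 (adjusted p = 0.177). The propiconazole call ended without propiconazole replicate 3 or control replicate 2 or 3 (adjusted p = 0.0676, 0.0760 and 0.0721), and the triadimefon call without triadimefon replicate 2 or control replicate 3 (0.0507 and 0.0517). A second Insig2 probe set fell as well, by 0.73 ± 0.15 with propiconazole and 1.12 ± 0.15 with triadimefon (adjusted p = 0.0416 and 0.0107). Insig1, itself a sterol-responsive SREBP target and named after its values were seen, stood at 0.11 ± 0.25, -0.53 ± 0.25 and -0.094 ± 0.25 in the same order of compounds. With myclobutanil the smallest p of the list was that of Rnf139, a ubiquitin ligase gene, at 0.29 ± 0.079 (adjusted p = 0.0840).

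Of 17 other tested genes of fatty acid synthesis and elongation, 1 rose with myclobutanil and none passed with the other compounds. That gene was Acsl3, which activates long-chain fatty acids, with 1.15, 0.750 and 0.856 units in myclobutanil livers against 0.235, 0.343 and 0.114 in control livers. It rose by 0.69 ± 0.13 (adjusted p = 0.0344), and the call ended on leaving out any of 7 single arrays (adjusted p up to 0.152, without control replicate 3), among them myclobutanil replicate 3 and each control. It also ended with array weights (0.0501) and in the fit of the 6 arrays of the 2 groups (0.133). At an unadjusted p under 0.05, 4 of the 17 were higher with myclobutanil, where 9.2% of all probe sets were, and 0 were lower. Groups did not overlap with control for 4 of the 17 with myclobutanil, where 23.3% of all probe sets did not. Propiconazole and triadimefon each had 0 at that p, where 14.5% and 13.4% of all probe sets were, in either direction. Mid1ip1 stood at -0.53 ± 0.26 and Acsl5, another acyl-CoA synthetase gene, at -0.31 ± 0.18 with propiconazole, and Thrsp, a lipogenic partner of Mid1ip1, at 0.51 ± 0.30 and Mcat, of mitochondrial fatty acid synthesis, at -0.11 ± 0.068 with triadimefon.

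The NADPH that Fasn consumes comes from malic enzyme and the pentose phosphate pathway. None of 7 tested genes passed for any compound, with 0, 0 and 1 at an unadjusted p under 0.05 for myclobutanil, propiconazole and triadimefon, where 21.1%, 14.5% and 13.4% of all probe sets were, in either direction. Me1, the malic enzyme gene, stood at 0.36 ± 0.20 with myclobutanil, 0.43 ± 0.20 with propiconazole and 0.42 ± 0.20 with triadimefon (adjusted p = 0.328, 0.363 and 0.401). Its dimmer probe set gave 0.77 ± 0.19, 0.32 ± 0.19 and 0.39 ± 0.19, and there every liver of each compound lay above every control (adjusted p = 0.0718, 0.499 and 0.423). The other genes with the smallest p were Pgd at 0.23 ± 0.14 with myclobutanil, Nadk at -0.15 ± 0.077 with propiconazole and Pgls, the one past that p, at -0.29 ± 0.11 with triadimefon, where 6.42% of all probe sets were lower.

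Of 6 tested glucose and fructose genes known as ChREBP targets, 1 fell with myclobutanil and none passed otherwise. With myclobutanil 5 of the 6 averaged below control, and 4 were lower at an unadjusted p under 0.05, where 11.9% of all probe sets were. Groups did not overlap with control for 2 of the 6, where 23.3% of all probe sets did not. Myclobutanil replicate 3 was the lowest of its group for all of the 6 but Txnip, and this list was not refitted without it. The median difference was -0.48 with myclobutanil, -0.044 with propiconazole and -0.12 with triadimefon. Over all tested probe sets these medians were -0.013, -0.012 and -0.013. With propiconazole and with triadimefon 1 was higher and 1 lower at that p, where 14.5% and 13.4% of all probe sets were, in either direction. Txnip, an inhibitor of thioredoxin that glucose induces, stood at 1.20, 1.16 and 1.22 units in myclobutanil livers against 1.55, 1.67 and 1.76 in control livers. It fell by 0.47 ± 0.085 (adjusted p = 0.0256), and the call ended without myclobutanil replicate 3 or control replicate 2 or 3 (adjusted p = 0.0632, 0.0880 and 0.124), and in the fit of 6 arrays (0.141). Txnip was at -0.23 ± 0.085 with propiconazole and -0.31 ± 0.085 with triadimefon (adjusted p = 0.246 and 0.144), and Gpd1, of glycerol phosphate formation, at 0.32 ± 0.13 and 0.34 ± 0.13.

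Of 14 tested genes of triglyceride synthesis and lipid droplets, 1 rose with myclobutanil, 1 rose with propiconazole, and 1 rose and 1 fell with triadimefon. The acyltransferase gene Agpat3 rose by 0.34 ± 0.059 with myclobutanil (adjusted p = 0.0226) and Pnpla2, which encodes a triglyceride lipase and so acts against storage, rose by 0.56 ± 0.11 with propiconazole (adjusted p = 0.0298). With triadimefon the phosphatidate phosphatase gene Lpin2 rose by 0.85 ± 0.13 (adjusted p = 0.0122) and the acyltransferase gene Agpat2 fell by 0.40 ± 0.071 (adjusted p = 0.0257). Lpin2 stood at 1.73, 1.85 and 1.55 units in triadimefon livers against 0.842, 0.882 and 0.858 in control livers. All 4 calls were lost on leaving out any 1 control, with adjusted p up to 0.107 for Agpat3, 0.131 for Pnpla2, 0.0742 for Lpin2 and 0.124 for Agpat2 over all arrays left out. Losses also came without myclobutanil replicate 3 (Agpat3), propiconazole replicate 1 or 2 or triadimefon replicate 3 (Pnpla2), triadimefon replicate 1 or 2 (Lpin2) and any 1 triadimefon array (Agpat2). Median centring ended the calls of Agpat3 and Agpat2 (both 0.0605), and the fit of 6 arrays those of Agpat3 and Pnpla2 (0.186 and 0.0605). The calls of Agpat3 and Lpin2 rest on 1 probe set each: the other 3 tested for Agpat3 gave -0.0050 ± 0.060, 0.025 ± 0.072 and 0.066 ± 0.092 with myclobutanil, and the other one for Lpin2 gave 0.037 ± 0.058 with triadimefon.

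In the sterol branch, which SREBP2 drives, 15 genes were tested. Sqle, of squalene epoxidation, rose by 1.03 ± 0.19 with myclobutanil (adjusted p = 0.0259), and Nsdhl, of sterol demethylation, fell by 0.42 ± 0.079 with propiconazole (adjusted p = 0.0298). None passed with triadimefon, where Sqle stood at 0.88 ± 0.19 (adjusted p = 0.0645) and Nsdhl at -0.23 ± 0.079. The medians of the 15 differences were 0.35 with myclobutanil, -0.15 with propiconazole and 0.20 with triadimefon. Over all tested probe sets these medians were -0.013, -0.012 and -0.013. At an unadjusted p under 0.05, 7 were higher with myclobutanil, 3 lower with propiconazole, and 3 higher and 1 lower with triadimefon. Of all probe sets 9.2%, 6.77%, 7.02% and 6.42% were, in the same order. Between myclobutanil and propiconazole all 15 were above 0 with a median of 0.48. At that p 11 were higher, where 4.88% of all probe sets were. Fdft1, the squalene synthase gene, differed by 0.77 ± 0.12 between them (adjusted p = 0.0791). Without myclobutanil replicate 3 or any 1 control the Sqle call ended (adjusted p up to 0.125), and without any 1 propiconazole or control array the Nsdhl call ended (adjusted p up to 0.124). The fit of 6 arrays ended the Sqle call (0.133), and the deposited values and median centring the Nsdhl call (0.0698 and 0.0600), while a second Nsdhl probe set also fell with propiconazole, by 0.47 ± 0.087 (adjusted p = 0.0280). Between these 2 compounds no gene of the other lists passed, and the smallest p in each were those of Insig2 (0.54 ± 0.13) and Srebf2 (0.17 ± 0.062), Acsl3 (0.60 ± 0.13) and Elovl1 (0.18 ± 0.058), Idh1 (0.16 ± 0.057) and Nadk (0.12 ± 0.077), Pklr (-0.90 ± 0.27) and Txnip (-0.24 ± 0.085), and Pnpla2 (-0.47 ± 0.11) and Agpat3 (0.23 ± 0.059).

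**Figure D4:**
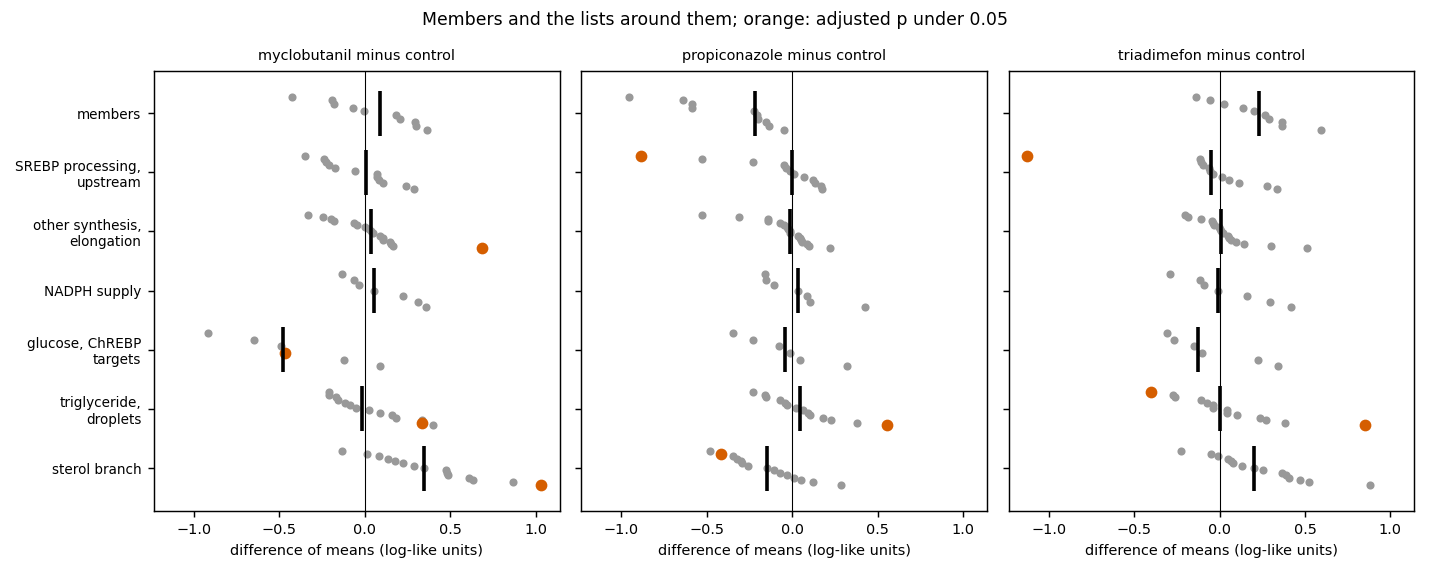
Differences of group means (log-like units) of the genes in each list for each compound minus control, with the 10 members set against the lists around them. Each point is a gene and each bar a list median. The median of the members is -0.22 for propiconazole minus control and 0.23 for triadimefon minus control.

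Markers of other cells were read beside these values. Averaged over 9 hepatocyte genes, the arrays lay between 2.94 and 3.23 units with myclobutanil, 3.24 and 3.36 with propiconazole, 3.19 and 3.31 with triadimefon and 3.14 and 3.30 in control. Alb, among the 9, read 4.03 on every array after quantile normalization, so it could show no difference. One of the 9, the apolipoprotein gene Apoa1, rose with propiconazole (0.49 ± 0.089, adjusted p = 0.0278). That call ended without any 1 propiconazole or control array (adjusted p up to 0.124) and with the deposited values (0.23 on that scale) or median centring. With myclobutanil only Apoa1 of the 9 averaged above control and 7 averaged below, with a median difference of -0.12. With propiconazole 5 averaged above and 3 below, and with triadimefon 4 above and 4 below. Apoa1 stood at 0.36 ± 0.089 and the urea cycle gene Ass1 at -0.40 ± 0.12 with myclobutanil (adjusted p = 0.0689 and 0.113). With triadimefon Apoa1 stood at 0.30 ± 0.089 and Tat at 0.44 ± 0.23. Adipocytes also make fatty acids: the mean of 7 measured adipocyte markers was 0.121 to 0.262 units with myclobutanil, 0.171 to 0.177 with propiconazole, 0.0176 to 0.151 with triadimefon and 0.0180 to 0.0792 in control. Of the 5 that were tested none was called, and 3 averaged below control with myclobutanil, 2 with propiconazole and 3 with triadimefon. At an unadjusted p under 0.05, 1 was higher with myclobutanil and 1 with propiconazole, where 9.2% and 7.73% of all probe sets were, and 0 with triadimefon. Fabp4 stood at 0.50 ± 0.17, 0.32 ± 0.17 and 0.32 ± 0.17 in that order of compounds, Cidea at 0.40 ± 0.20 with myclobutanil and 0.66 ± 0.20 with propiconazole, and Lipe at -0.15 ± 0.070 with triadimefon. The defining markers Adipoq and Plin1 were among the probe sets too dim to test.

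Kupffer cells, the macrophages of the liver, were read through 5 tested markers, of which 4 fell with myclobutanil (Clec4f, Cd5l, C1qa and Adgre1, by 1.35, 1.31, 1.0 and 0.30). Each of these calls ended without any 1 control (adjusted p up to 0.168) and in the fit of the 6 arrays of the 2 groups (up to 0.221), and that of Clec4f also ended without myclobutanil replicate 3. Of the 12 fits that left out 1 array, Cd5l was called in 1 and Adgre1 in 2, and both calls ended with no dim filter (adjusted p = 0.0522 and 0.0513), that of Adgre1 also with the deposited values (0.0718). The mean of the 5 ran from 0.103 to 0.783 units in those livers, 1.07 to 1.25 with propiconazole, 1.12 to 1.21 with triadimefon and 1.11 to 1.36 in control. No Kupffer marker passed with propiconazole or triadimefon (0 at an unadjusted p under 0.05 for each), where the smallest p were those of Adgre1 (-0.084 ± 0.063) and C1qa (-0.14 ± 0.16) with propiconazole, and of C1qa (-0.24 ± 0.16) and Cd163 (0.16 ± 0.13) with triadimefon.

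None of 3 tested cholangiocyte markers passed for any compound. Epcam stood at 0.42 ± 0.15, 0.52 ± 0.15 and 0.39 ± 0.15 with myclobutanil, propiconazole and triadimefon, each at an unadjusted p under 0.05, where 9.2%, 7.73% and 7.02% of all probe sets were higher. Krt7 lay on the other side of 0 at -0.090 ± 0.039 with myclobutanil (unadjusted p under 0.05, where 11.9% were lower) and at -0.029 ± 0.039 with propiconazole, and Spp1 stood at 0.095 ± 0.076 with triadimefon.

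Between myclobutanil and propiconazole no marker was called. All 5 Kupffer markers were nevertheless lower with myclobutanil at an unadjusted p under 0.05, where 5.26% of all probe sets were. The groups did not overlap for any of the 5, where 13.4% of all probe sets did not. C1qa differed by -0.86 ± 0.16 and Clec4f by -1.21 ± 0.22 (limma adjusted p = 0.158 and 0.161). Of the 9 hepatocyte markers 3 were lower at that p, among them Ass1 (-0.45 ± 0.12) and Tat (-0.79 ± 0.23). No adipocyte marker was past it (Pparg at -0.067 ± 0.039, Cidea at -0.26 ± 0.20), nor was a cholangiocyte marker (Krt7 at -0.061 ± 0.039, Spp1 at -0.056 ± 0.076). The part of these cells in the members' values was not tested.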

How the data were processed

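Total RNA from 12 livers was hybridized to Affymetrix Rat Genome 230 2.0 arrays, 1 liver each, per the labels' protocols. The deposited value of each probe set is a log-like score; the authors' summary, normalization and log base are not stated in those sources. Because the deposited medians differed by more than the median within-group SD (0.0736), arrays were quantile normalized. From 31099 probe sets, 57 controls and the dimmest 30% by mean over all arrays (9313) were left out. By the platform annotation 20826 probe sets have 1 gene, 436 several and 9780 none, and symbols were updated through RefSeq (GRCr8) for 20758. A gene was represented by its brightest tested probe set.

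limma 3.58.1 (R 4.3.3) fitted the 4 group means on all arrays (8 residual degrees of freedom, variance prior with intensity trend). Each of 4 comparisons was tested in both directions with Benjamini-Hochberg adjustment over 21729 probe sets. The test was tried on simulated data first. The number of arrays sets the precision, and p-values measure the spread between rats. Python 3.11.15 with matplotlib 3.10.9 drew the figures and searched the promoters.

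The members and the gene lists were chosen with earlier results of these data known. Named are all members, every listed gene called in a comparison or, where a list had none, the 2 with the smallest p, and the 5 genes nearest to Srebf1; other names are said to be chosen after their values were seen. Alternatives covered normalization, the dim filter, the arrays in the fit, array weights, a replicate block, the variance trend, the mean over a gene's probe sets and each array left out in turn.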

Additional observations from a re-analysis of the deposited data

How the results depend on the processing

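No member was called for any comparison with the deposited values, with median centring, with the dim filter dropped or raised to 50%, with no intensity trend, the mean over a gene's probe sets, or any 1 array left out (0 to 0 calls in each comparison). With the 6 arrays of the 2 groups alone, 1 member was called lower for propiconazole (Srebf1, adjusted p = 0.0386) and 1 higher for triadimefon (Acss2), and array weights called 2 higher for triadimefon (Acss2 and Elovl6); the cause was not tested. With 1 array left out, the median difference of the members ran from -0.059 to 0.214 for myclobutanil, -0.30 to -0.17 for propiconazole, 0.15 to 0.32 for triadimefon and 0.29 to 0.59 for myclobutanil minus propiconazole. Under the other alternatives it ran from -0.024 to 0.091, -0.34 to -0.21, 0.17 to 0.33 and 0.34 to 0.46. Members at an unadjusted p under 0.05 were counted under each alternative after seeing the data: 1 to 2 higher and 0 to 1 lower for myclobutanil, 0 to 6 lower for propiconazole, 2 to 5 higher for triadimefon and 2 to 6 higher for myclobutanil minus propiconazole. Same-numbered arrays of different groups deviated together (r over 0.1) in 3 of 18 pairs, and 3 of 12 arrays resembled their own number most. That gave no sign that the numbers pair the rats, but 3 arrays a group are too few to settle it. With a replicate block 0 members were called. The calls over all probe sets were then 147 for myclobutanil, 121 for propiconazole and 87 for triadimefon, against 396, 311 and 167 without it. The block also ended the calls of Acsl3, Txnip, Agpat3, Cd5l, Adgre1, Pnpla2, Nsdhl and Agpat2 (adjusted p from 0.0506 to 0.0804). Those totals were 8, 648 and 623 with 6 arrays and 483, 1368 and 1038 with array weights, and with 1 array left out they ran from 29 to 925, 36 to 968 and 6 to 614.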

Other observations

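Pklr, the gene of liver pyruvate kinase and a ChREBP target, was low in the myclobutanil livers; it was picked after its values were seen. It stood at 0.666, 1.11 and 0.230 units in myclobutanil livers, 1.04, 1.82 and 1.86 in propiconazole livers, 1.24, 1.61 and 1.59 in triadimefon livers and 1.90, 1.20 and 1.65 in control livers. All 3 myclobutanil livers lay below all 3 controls, and the difference was -0.92 ± 0.27 (limma adjusted p = 0.0978), beside -0.012 ± 0.27 for propiconazole and -0.10 ± 0.27 for triadimefon. Its dimmer probe set gave -0.41 ± 0.19 with myclobutanil (adjusted p = 0.237), and there the groups overlapped. Srebf2, the gene of the sterol-branch factor, stood at -0.057 ± 0.062 with myclobutanil, -0.23 ± 0.062 with propiconazole (adjusted p = 0.110) and -0.11 ± 0.062 with triadimefon, and the propiconazole and triadimefon livers lay below all controls. None of these differences passed the test.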
